A study of Homo sapiens with 20 samples.

Results

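The report describes 10 receptor tyrosine kinase genes, EGFR, ERBB2, ERBB3, ERBB4, MET, FGFR1, FGFR2, FGFR3, FGFR4 and IGF1R, among the 57087 genes to which the deposited transcripts could be assigned. They were listed by name. EGFR and MET were picked by the study, partly from libraries described here, as predicted targets of tRNA-derived small RNAs (tsRNAs, fragments cut from transfer RNAs), so the direction of these 2 genes is not independent evidence. The other 8 are relatives of the same enzyme class, and all 10 genes were found in all 14 libraries. RNA was sequenced from HEK293 cells, a line derived from human embryonic kidney, in which an enzyme of small RNA metabolism was knocked down by a short hairpin RNA (shRNA).

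Whole-cell RNA (mRNA-seq) came from 3 wt samples, labelled HEK293T, and 3 shDicer samples, labelled HEK293 2B. All 6 received 3 µg/ml doxycycline for 7 days, which induces the shRNA against DICER1 in the shDicer line. The labels call this RNA polyA RNA, whereas the study's methods describe removal of ribosomal RNA, and which of these was done could not be settled. RNA bound to chromatin (chrRNA-seq), which is rich in transcripts still being made, came from 2 wt, 2 shDicer, 2 shAgo2 and 2 DroshaKD samples, all labelled HEK293. The shDicer and shAgo2 chromatin samples came from stable inducible HEK293T-REx lines given 3 µg/ml doxycycline for 72 h, and the DroshaKD samples, labelled shDrosha, came from transfection of shRNA plasmids. Doxycycline treatment of the chromatin wt and DroshaKD samples is not given in the sources used here. The shDicer and shAgo2 lines are derived lines, so knockdown, parental line and clone cannot be told apart in their comparisons with wt, nor, on chromatin, can the drug. In DroshaKD the knockdown and the transfection cannot be told apart. Nothing in the labels says that replicates were separate cultures, so the p-values measure the spread between these samples, which may be technical. In bulk RNA, more cells expressing a gene and more RNA per cell cannot be told apart either.

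Receptor tyrosine kinases are membrane proteins that bind a growth factor outside the cell, pair up and phosphorylate each other inside it. The phosphorylated tails recruit adaptor proteins, which pass the signal to the RAS-ERK and PI3K-AKT kinase cascades and so to growth, survival and migration. EGFR and ERBB2 to ERBB4 form 1 family and exchange partners among themselves, MET is the receptor of hepatocyte growth factor (HGF), FGFR1 to FGFR4 bind fibroblast growth factors and IGF1R binds insulin-like growth factors. Dicer cuts precursor RNAs into microRNAs and other small RNAs, AGO2 is the protein that holds such a small RNA against its target, and Drosha makes the first cut in microRNA precursors.

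The sequence that ties EGFR to MET in the study is shown first, because 1 synthetic tsRNA is named for both genes. It is 22 bases long and is printed 5′ to 3′. The next lines show 3 of the 10 EGFR sites that the part of the study's target table read here lists for individual tsRNAs, chosen to show the longest run of pairing and both intron and exon. They are on the plus strand of hg38, and capitals mark the longest unbroken run of Watson-Crick pairs with the listed tsRNA.
tsRNA EGFR/MET: ucccugguggucuagugguuag
EGFR intron 1, tRNA-Glu-CTC-2-1, chr7:55110774-55110795: cgctggccattagCCACCAGcc
EGFR intron 20, tRNA-Gln-CTG-3-1, chr7:55187674-55187697: gctctgagatctgGAGTCCAGAGa
EGFR exon 28, UTR, tRNA-Lys-TTT-2-1, chr7:55206022-55206043: gctaccctgagttcATCCAGGC

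The run of pairs covered bases 3 to 9 of the tRNA-Glu-CTC-2-1 fragment, bases 2 to 11 of the tRNA-Gln-CTG-3-1 fragment and bases 1 to 8 of the tRNA-Lys-TTT-2-1 fragment. Of the 10 listed EGFR sites, 9 lay in introns, and their longest runs were 4 to 10 bases, so the sites printed leave out the shortest. The table was read only in part, so no count of sites was compared between genes from it. The EGFR site that the study tested by reporter assay and by deletion is not among the sequences printed here.

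Every window of 22 bases on the transcribed strand of the gene body was then compared with the synthetic tsRNA, without gaps or wobble pairs. The windows with most pairs in EGFR, MET and ERBB4 are printed because these 3 genes had the largest rises on chromatin, with capitals at the paired bases (hg38, read along the gene's own strand, which is plus for EGFR and MET and minus for ERBB4).
EGFR intron 4, chr7:55146872-55146893: CTgACCACTAGAaaAgCAtGtA
MET intron 19, chr7:116786558-116786579: CTActCAgTAcACCAgaAGGGt
ERBB4 intron 2, chr2:212090456-212090477: acAAtCACTAGACCtCCAGGGA

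The window paired at 16 of 22 bases in EGFR, at 15 in MET and at 18 in ERBB4. A window with at least 14 pairs was found in 84.5% of the 16659 protein-coding genes scanned, and 1 with 18 pairs in 0.43%, or in 8.1% of the 62 genes longer than 1 Mb, among which ERBB4 belongs. Per 100 kb of gene, EGFR held 12.46 windows of at least 14 pairs and MET 13.47, against 16.47 in ERBB2, 11.23 in ERBB3, 8.43 in ERBB4, 10.2 in FGFR1, 6.66 in FGFR2, 12.84 in FGFR3, 17.79 in FGFR4, 8.86 in IGF1R and a median of 9.14 over all genes scanned. EGFR and MET therefore lay within the range of their relatives by this letter count, which describes a match and not a binding site.

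Libraries held 10216430 to 17215978 estimated counts in mRNA-seq and 17484067 to 21553760 in chrRNA-seq, so 3 counts, taken as the floor of detection, were worth at most 0.307 CPM (counts scaled to a common library size). The targeted genes were checked first. DICER1 measured 231 to 257 CPM in the wt mRNA libraries and 80.6 to 94.4 CPM in shDicer (log2 fold change -1.49, adjusted p = 1.28e-07). On chromatin DICER1 was not called lower in shDicer (-0.18, adjusted p = 0.166), AGO2 fell in shAgo2 (-0.62, adjusted p = 9.29e-05) and DROSHA measured 157 CPM in DroshaKD against 150 CPM in wt (0.07, adjusted p = 0.697), so these values give no check of the shDicer and shDrosha labels on chromatin. The study measured these transcripts by quantitative PCR in samples used for chrRNA-seq, and the knockdowns by western blot, neither of which is reanalysed here. DICER1 rose in shAgo2 chromatin (0.78, adjusted p = 3.59e-05). Of 7 markers of HEK293 lines, 5 to 7 were above 1 TPM (transcripts scaled for length and library size) in every group, but they moved with the groups. On chromatin VIM measured 189 to 200 TPM in wt and 68.3 to 80.4 TPM in shDicer, NEFL 2.79 to 3.36 and 30.6 to 40.7 TPM, and NEFM 7.14 to 7.20 and 0.987 to 1.08 TPM, and the 7 summed to 232 to 239 TPM in wt and 148 to 176 TPM in the other groups. In mRNA-seq they summed to 127 to 160 TPM in wt and 167 to 220 TPM in shDicer. The 4 fibroblast markers summed to 15.5 to 18.8 TPM in wt chromatin, 20.7 to 24.3 TPM in shDicer, 23.8 to 25.5 TPM in shAgo2 and at most 17.8 TPM in DroshaKD, against at most 1.25 TPM in mRNA-seq, with 2 or 3 of them above 1 TPM in each chromatin group. Summed blood markers were 3.94 to 4.16 TPM in wt chromatin and 0.991 to 1.68 TPM in shDicer and shAgo2, and endothelial markers reached at most 5.32 TPM. The part of these markers in the results was not tested.

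Among the 10 receptor genes, 5 rose and 0 fell in shDicer mRNA-seq, where 15.6% of 15090 tested genes were called higher and 14.2% lower, 29.8% in all (edgeR, adjusted p under 0.001). No fall was called at that threshold, although 9 of the 10 genes had an unadjusted p under 0.05 and DESeq2 also called none lower. Without the low-count filter FGFR3 was called lower there (-0.80, adjusted p = 5.5e-06). With counts scaled from TPM the rises of EGFR, ERBB2, ERBB3 and MET were no longer called, at log2 fold changes of 1.10, 0.59, 1.16 and 0.52. In chrRNA-seq 6 rose and 2 fell in shDicer, where 11.0% of 32874 genes were called higher and 10.5% lower, 21.6% in all (adjusted p under 0.005). In shAgo2, at the same threshold, 6 rose and 3 fell, against 12.5% and 12.1% of all genes, 24.5% together. The libraries labelled shDrosha gave 0 calls among the 10 at an adjusted p under 0.05, where 1.19% of genes were called higher and 2.18% lower, 3.38% together. There, 1 of the 10 had an unadjusted p under 0.05 and DESeq2 also called 0. All 3 chromatin comparisons share the same 2 wt libraries. The median log2 fold change of the 10 genes was 0.69 in mRNA-seq and, on chromatin, 0.33 in shDicer, 0.47 in shAgo2 and 0.08 in DroshaKD, where the medians over all genes lay between 0.0028 and 0.011.

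**Figure D1:**
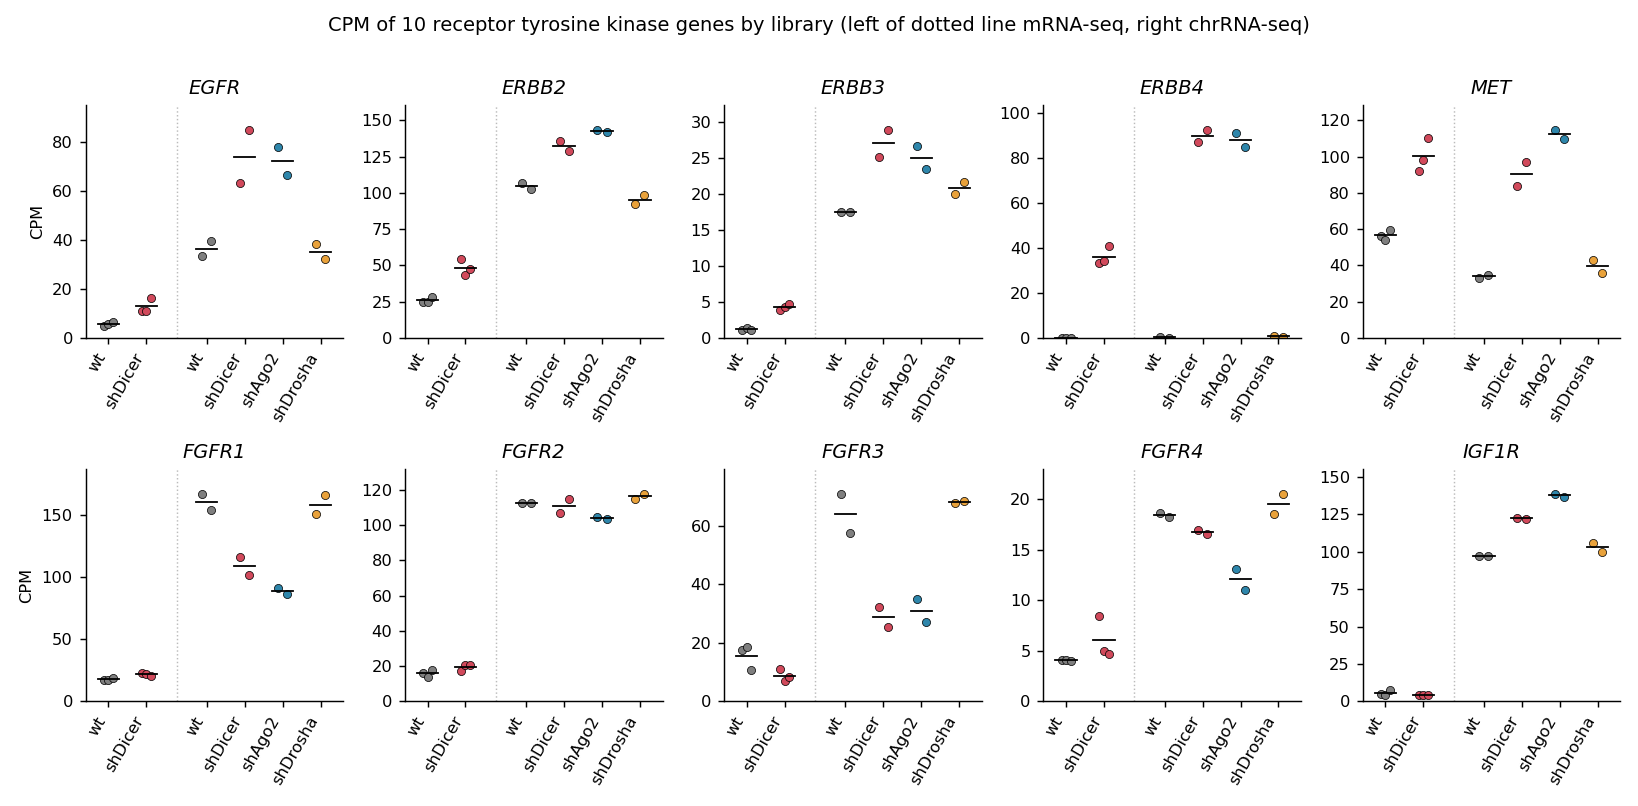
Normalised level (CPM, linear axis from 0) of each of the 10 receptor genes, 1 panel per gene, with a point for each library, a line at each group mean, and mRNA-seq to the left and chrRNA-seq to the right of the dotted line. EGFR, MET, ERBB2, ERBB3, ERBB4 and IGF1R were higher in every shDicer and shAgo2 chromatin library than in any wt library. FGFR1, FGFR3 and FGFR4 were lower, and FGFR2 overlapped wt in shDicer but not in shAgo2. With 2 libraries per group such separation is only a description, and its share over all genes was not computed.

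EGFR, the receptor of EGF and TGF-alpha, lies at chr7:55019017-55211628 on the plus strand. In mRNA-seq it measured 4.78, 5.51 and 6.24 CPM in wt and 11.0, 11.0 and 16.2 CPM in shDicer. In CPM every shDicer library was higher than every wt library, a 2.34-fold rise (log2 fold change 1.22, SE 0.193, adjusted p = 0.000278). In TPM the ranges overlapped, at 0.274 to 0.492 in wt and 0.460 to 0.859 in shDicer. On chromatin it measured 33.3 and 39.5 CPM in wt, 62.9 and 84.7 CPM in shDicer, and 77.9 and 66.3 CPM in shAgo2. The groups again did not overlap with wt, and EGFR rose 2.03-fold in shDicer (1.02, SE 0.145, adjusted p = 0.000169) and 1.98-fold in shAgo2 (0.99, SE 0.145, adjusted p = 0.000185). The libraries labelled shDrosha read 38.2 and 32.2 CPM, which overlaps the wt range (-0.05, adjusted p = 0.901). The mRNA-seq call was lost without wt replicate 1 (log2 fold change 1.15, adjusted p = 0.00291) or wt replicate 2 (1.22, adjusted p = 0.00146), and both chromatin calls were lost, narrowly, without chromatin wt replicate 1 (0.90, adjusted p = 0.00501 in shDicer; 0.86, adjusted p = 0.00537 in shAgo2).

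MET, which HGF activates and which drives cell scattering and migration, lies at chr7:116672196-116798377 on the plus strand. It had the highest mean TPM of the 10 in wt mRNA-seq. Its mRNA level was 56.0, 54.2 and 59.5 CPM in wt and 92.1, 98.4 and 110 CPM in shDicer, a 1.77-fold rise without overlap (log2 fold change 0.83, SE 0.086, adjusted p = 1.42e-05). On chromatin MET measured 33.0 and 34.6 CPM in wt, 83.9 and 96.8 CPM in shDicer, and 115 and 110 CPM in shAgo2. These were 2.67-fold (1.42, SE 0.102, adjusted p = 7.97e-07) and 3.32-fold (1.73, SE 0.102, adjusted p = 1.27e-07) rises, and the 2 knockdowns did not overlap with each other. DroshaKD read 43.1 and 35.9 CPM, above both wt libraries but not past the threshold (0.22, adjusted p = 0.278). All 3 calls held without any 1 library. Among the 50 tested genes nearest to MET the median log2 fold change was 0.80 in mRNA-seq, and with that median as an offset MET's own value was 0.03 (adjusted p = 0.808). On chromatin the neighbours' median was 0.47 in shDicer and 0.46 in shAgo2, and MET stayed past the threshold with the offset. The part of that shared shift in the MET result was not tested.

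ERBB4, a neuregulin receptor with its own kinase activity, lies at chr2:211375717-212538841 on the minus strand and separated the groups most. It had 1, 1 and 0 estimated counts in wt mRNA libraries and 426, 453 and 682 in shDicer (33.4, 34.3 and 40.7 CPM). Chromatin wt libraries held 7 and 0 counts, shDicer 1658 and 1743 (87.3 and 92.3 CPM), shAgo2 1854 and 1553 (91.2 and 84.8 CPM), and DroshaKD 12 and 8. ERBB4 was thus at or near the floor in wt and DroshaKD and well above it in shDicer and shAgo2. The ratio of summed counts, scaled by library size, was 609 in mRNA-seq (95% exact interval 168 to 5030, counting error only), 419 in shDicer chromatin (203 to 1040) and 412 in shAgo2 chromatin (200 to 1030). For DroshaKD it was 2.6 (1.06 to 7.29), a difference that edgeR did not call (adjusted p = 0.319). ERBB4 was called in mRNA-seq (adjusted p = 3.58e-09) and in both chromatin comparisons (adjusted p = 9.61e-10 and 9.23e-10), but it passed the low-count filter only through the groups in which it is high. A difference in ERBB4 between the lines themselves and an effect of the knockdown cannot be told apart.

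ERBB2, which binds no ligand and serves as the preferred partner of the other 3 ERBB receptors, rose in all 3 comparisons with Dicer or AGO2 knockdown (chr17:39687914-39730426, plus strand). It measured 24.4, 24.8 and 28.4 CPM in wt and 54.3, 43.6 and 47.4 CPM in shDicer mRNA-seq (log2 fold change 0.91, SE 0.112, adjusted p = 4.86e-05). On chromatin it measured 107 and 103 CPM in wt, 135 and 129 CPM in shDicer, 143 and 142 CPM in shAgo2, and 92.1 and 98.6 CPM in DroshaKD. No group overlapped with wt, but the sizes were small, 1.26-fold in shDicer (0.34, SE 0.0736, adjusted p = 0.0033) and 1.36-fold in shAgo2 (0.45, SE 0.0735, adjusted p = 0.000427). Both chromatin calls were lost without any 1 of the 4 libraries compared, with adjusted p from 0.00669 to 0.046 in shDicer and from 0.00583 to 0.0107 in shAgo2, and the shDicer call also without shAgo2 replicate 1 (0.34, adjusted p = 0.00946) or 2 (0.34, adjusted p = 0.00935). The mRNA-seq call was lost without wt replicate 1 (0.89, adjusted p = 0.00106), and with the neighbours' median as offset the chromatin values were 0.12 in shDicer and 0.02 in shAgo2.

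ERBB3, whose kinase is weak and which signals mainly through its partner, was among the least abundant of the 10 (chr12:56076799-56103505, plus strand). Its mRNA level was 1.13, 1.42 and 1.02 CPM in wt and 3.92, 4.31 and 4.77 CPM in shDicer. That was a 3.61-fold rise without overlap (log2 fold change 1.85, SE 0.238, adjusted p = 6.42e-05), and it held without any 1 library. With counts scaled from TPM it was 1.16 and no longer called (adjusted p = 0.0365). On chromatin ERBB3 measured 17.6 and 17.5 CPM in wt, 25.2 and 28.9 CPM in shDicer, 26.6 and 23.5 CPM in shAgo2, and 20.0 and 21.7 CPM in DroshaKD. It rose 1.54-fold in shDicer (0.63, SE 0.108, adjusted p = 0.000667) and 1.43-fold in shAgo2 (0.52, SE 0.108, adjusted p = 0.00225). The shDicer call was lost without wt replicate 1 (0.63, adjusted p = 0.00956), wt replicate 2 (0.62, adjusted p = 0.00951) or shDicer replicate 2 (0.52, adjusted p = 0.00626). The shAgo2 call was lost without any 1 of the 4 libraries compared (adjusted p from 0.00535 to 0.038) and with DESeq2 (0.51, adjusted p = 0.00833).

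FGFR1, the FGF receptor that mesenchymal and neural cells use most, is on the minus strand of chromosome 8. It measured 17.3, 17.3 and 18.7 CPM in wt mRNA-seq and 22.6, 22.1 and 20.3 CPM in shDicer, higher in all 3 libraries but not past the threshold (log2 fold change 0.29, SE 0.109, adjusted p = 0.0418). On chromatin it measured 167 and 154 CPM in wt, 117 and 102 CPM in shDicer, 91.3 and 86.7 CPM in shAgo2, and 151 and 167 CPM in DroshaKD. FGFR1 thus fell on chromatin in shDicer (-0.56, SE 0.0894, adjusted p = 0.000409) and in shAgo2 (-0.85, SE 0.0901, adjusted p = 1.41e-05), while DroshaKD overlapped the wt range. The shDicer call was lost without chromatin wt replicate 1 (-0.50, adjusted p = 0.00891) and when only protein_coding transcripts were summed (-0.38, adjusted p = 0.0127).

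FGFR3, an FGF receptor known as a brake on cartilage growth, fell on chromatin (chr4:1793293-1808872, plus strand). It measured 70.9 and 57.3 CPM in wt, 32.3 and 25.3 CPM in shDicer, and 35.0 and 27.0 CPM in shAgo2, with log2 fold changes of -1.16 (SE 0.143, adjusted p = 5.8e-05) and -1.05 (SE 0.142, adjusted p = 9.7e-05). DroshaKD lay inside the wt range at 67.7 and 68.6 CPM. In mRNA-seq it read 17.4, 18.5 and 10.6 CPM in wt and 11.0, 6.96 and 8.17 CPM in shDicer. These groups overlapped and the difference was not called (-0.84, SE 0.222, adjusted p = 0.00735). With protein_coding transcripts only, the mRNA-seq value turned to 0.38 (adjusted p = 0.642) and both chromatin calls were lost (-1.09, adjusted p = 0.0212 in shDicer and -1.18, adjusted p = 0.0141 in shAgo2).

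FGFR2, whose splice forms divide epithelial from mesenchymal use, was the steadiest of the 10 on chromatin, at 104 to 118 CPM in all 8 libraries (chr10:121478332-121598458, minus strand). None of its 4 comparisons was called (adjusted p from 0.0784 to 0.83), and mRNA-seq read 16.2, 13.96 and 17.8 CPM in wt and 17.2, 20.7 and 20.9 CPM in shDicer, with overlap. FGFR4, a receptor of FGF19 best known from liver, measured 4.13, 4.09 and 3.99 CPM in wt and 8.46, 4.99 and 4.71 CPM in shDicer mRNA-seq (chr5:177086905-177098144, plus strand). The first shDicer library stood above the other 2, and the difference was not called (0.56, SE 0.241, adjusted p = 0.0677). On chromatin FGFR4 measured 18.6 and 18.3 CPM in wt, 16.9 and 16.5 CPM in shDicer, 13.1 and 11.0 CPM in shAgo2, and 18.5 and 20.5 CPM in DroshaKD. It fell only in shAgo2 among these (-0.61, SE 0.113, adjusted p = 0.00101), and that call was lost without wt replicate 1 (-0.60, adjusted p = 0.0113), wt replicate 2 (-0.63, adjusted p = 0.00821) or shAgo2 replicate 2 (-0.50, adjusted p = 0.0179) and with the neighbours' median as offset (-0.24, adjusted p = 0.129).

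IGF1R, the receptor of IGF1 and IGF2, showed no call in mRNA-seq, at 4.78, 4.45 and 7.27 CPM in wt and 4.47, 4.01 and 4.35 CPM in shDicer (log2 fold change -0.35, SE 0.215, adjusted p = 0.185). On chromatin it measured 97.2 and 97.3 CPM in wt, 123 and 122 CPM in shDicer, 139 and 137 CPM in shAgo2, and 106 and 99.9 CPM in DroshaKD. It rose 1.26-fold in shDicer (0.33, SE 0.071, adjusted p = 0.003) and 1.42-fold in shAgo2 (0.50, SE 0.0709, adjusted p = 0.000138). The shDicer call was lost without any 1 of the 2 wt, 2 shDicer or 2 shAgo2 libraries (adjusted p from 0.00872 to 0.0335), and with the neighbours' median as offset neither call held (0.13 and 0.18). The files hold 15 of the 17 annotated IGF1R transcripts (chr15:98648539-98964530, plus strand) and lack the canonical one, so its values cover the gene in part.

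**Figure D2:**
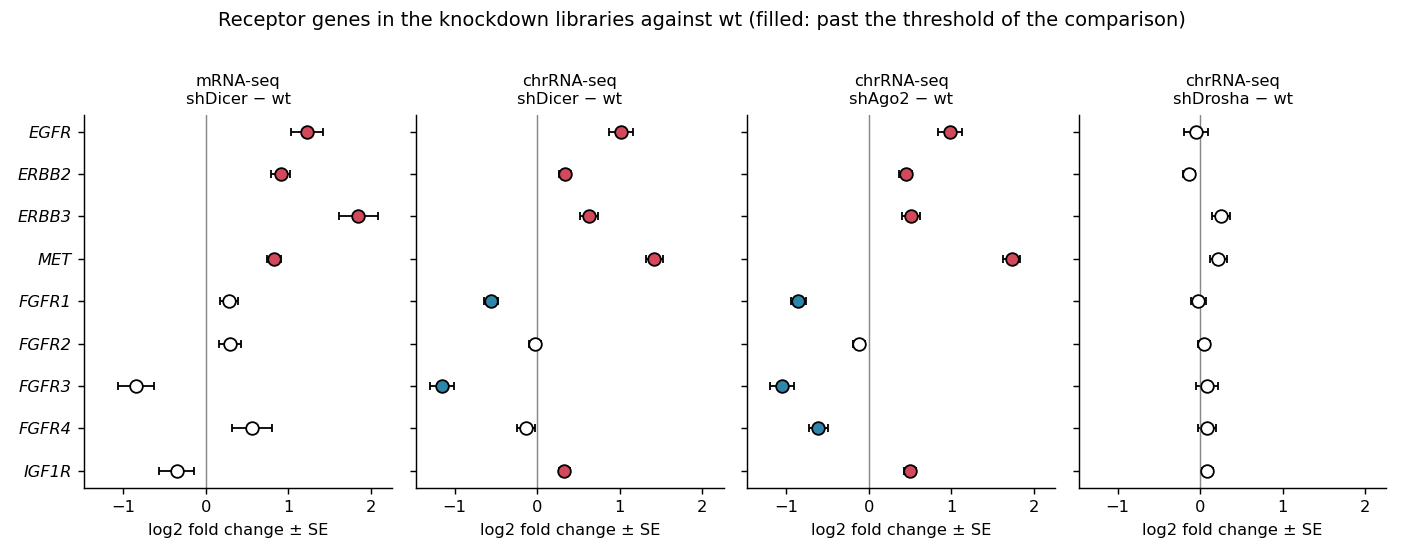
Log2 fold change against wt (points) with SE (bars), filled where called, for 9 receptor genes in mRNA-seq shDicer and chromatin shDicer, shAgo2 and shDrosha libraries; ERBB4, near 0 counts in wt, is left out. MET and EGFR have the highest chromatin values and FGFR3 the lowest, while shDrosha values lie near 0.

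The knockdowns were also compared directly on chromatin. Between shDicer and shAgo2 none of the 10 genes was called, where 1.37% of all genes were called higher and 1.34% lower, 2.71% together. DESeq2 also called none, and 4 of the 10 had an unadjusted p under 0.05. The nearest to the threshold were FGFR4, higher in shDicer (log2 difference 0.47, SE 0.113, adjusted p = 0.0214), MET, lower in shDicer (-0.31, SE 0.0951, adjusted p = 0.0604), and FGFR1, higher in shDicer (0.30, SE 0.0901, adjusted p = 0.0612). Against the libraries labelled shDrosha, 4 of the 10 were higher and 2 lower in shDicer, where 11.0% and 9.51% of all genes were (20.5% in all), and 5 were higher and 3 lower in shAgo2, where 11.6% and 10.3% were (21.9% in all). EGFR was above DroshaKD, with log2 differences of 1.07 for shDicer (adjusted p = 0.000123) and 1.04 for shAgo2 (adjusted p = 0.000145). For MET they were 1.20 (adjusted p = 2.93e-06) and 1.51 (adjusted p = 3.93e-07). FGFR3 was lower than in DroshaKD in both knockdowns (-1.24, adjusted p = 3.42e-05 in shDicer; -1.14, adjusted p = 6.05e-05 in shAgo2). These contrasts do not use the wt means, although DroshaKD was made by transfection and not in the inducible lines.

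Whether the shDicer effect differed between chromatin and whole-cell RNA was tested with an interaction term. It was called for 2 of the 10 genes, both with the lower value on chromatin, where 3.82% of 31106 genes were called in that direction and 1.21% in the other, 5.03% together. The 2 were ERBB3, with a chromatin effect lower by 1.30 on the log2 scale (-1.30, SE 0.258, adjusted p = 0.00314), and FGFR1 (-0.92, SE 0.143, adjusted p = 0.000496), against a median difference of -0.10 over all genes. ERBB3 rose in both kinds of RNA, and FGFR1 fell on chromatin only, with a value above 0 in whole-cell RNA that was not called. The ERBB3 call was lost when any 1 library was left out except mRNA-seq shDicer replicate 1 (adjusted p from 0.00545 to 0.0231) and the FGFR1 call, narrowly, without chromatin wt replicate 1 (-0.87, adjusted p = 0.00508). The EGFR effect did not differ past the threshold (-0.29, SE 0.259, adjusted p = 0.583), and for MET the chromatin effect was larger by 0.51 without passing it (SE 0.135, adjusted p = 0.0191; 0.69, adjusted p = 0.000209 and past it with DESeq2). Without mRNA-seq shDicer replicate 3 the MET difference was called (0.67, adjusted p = 0.00357), and without shDicer replicate 2 that of ERBB2 (-0.73, adjusted p = 0.00481). The 2 assays came from separate experiments, so library type, induction time and line cannot be told apart from the RNA fraction.

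**Figure D3:**
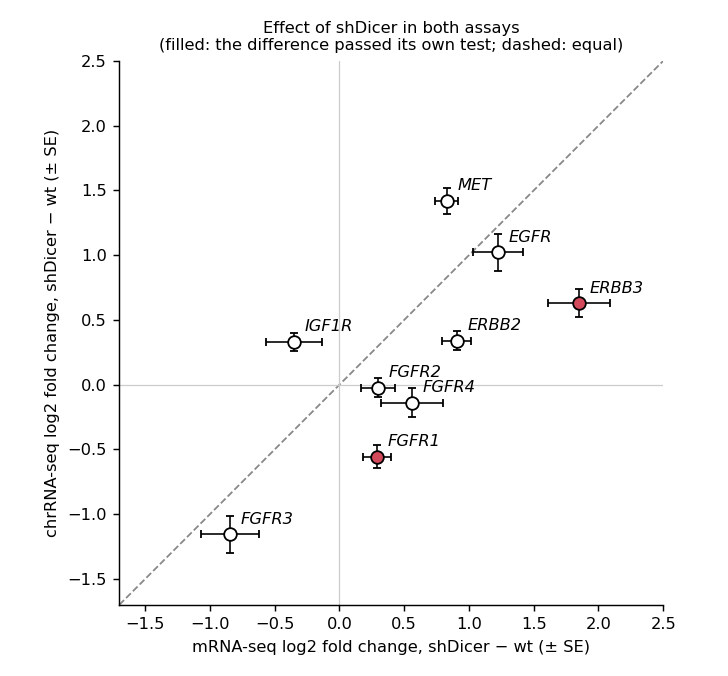
Log2 fold change of shDicer against wt on chromatin (vertical axis) against the same in mRNA-seq (horizontal axis) for 9 receptor genes, with SE bars and the line of equal values. ERBB3 and FGFR1 (filled), whose difference was called, lie below the line, and MET and IGF1R lie above it.

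EGFR and MET were set against each other and against their relatives except ERBB4 as ratios within a library, which do not depend on library scaling. ERBB4 was left out because it was near 0 counts in wt. It rose by 9.02 in mRNA-seq and by 8.67 and 8.64 on shDicer and shAgo2 chromatin, far more than EGFR or MET. EGFR stood at a log2 ratio of -3.37 to MET in wt mRNA-seq and -2.99 in shDicer, without overlap (difference 0.37, exact two-sided permutation test p = 0.1, the smallest p that 3 against 3 allows, and 0.136 after adjustment over the 15 pairs tested). On chromatin the ratio moved the other way, from 0.10 in wt to -0.30 in shDicer, -0.64 in shAgo2 and -0.16 in DroshaKD, each without overlap. Ratios on chromatin were not tested, because an exact permutation test of 2 against 2 libraries cannot pass the threshold. With 2 libraries per group, ranges often separate by chance alone, so lack of overlap there is only a description. Against ERBB2, EGFR shifted by 0.29 in mRNA-seq (p = 0.3, exact permutation test) and by 0.67 and 0.54 on chromatin in shDicer and shAgo2. Against ERBB3 it shifted by -0.67 in mRNA-seq but by 0.39 and 0.47 on chromatin. MET against ERBB2 was -0.08 in mRNA-seq with overlap and 1.08 and 1.28 on chromatin. In DroshaKD, MET also stood higher without overlap against ERBB2 (by 0.35) and IGF1R (by 0.13), and the other DroshaKD ratios apart from EGFR to MET overlapped with wt. Of the 15 pairs, 2 stood higher and 1 lower without overlap in DroshaKD, against 14 and 1 in each of shDicer and shAgo2 chromatin. Each pair holds EGFR or MET, so the pairs are not independent and largely restate the changes of these 2 genes. The share over other gene pairs was not computed. Against FGFR1, EGFR shifted by 0.91, 1.57 and 1.84 and MET by 0.54, 1.97 and 2.59. In the order mRNA-seq shDicer, chromatin shDicer and chromatin shAgo2, EGFR against IGF1R shifted by 1.53, 0.68 and 0.49, and MET against IGF1R by 1.15, 1.08 and 1.23. In that order EGFR shifted by 0.90, 1.03 and 1.10 against FGFR2 and by 2.02, 2.17 and 2.04 against FGFR3. MET shifted by 0.53, 1.44 and 1.85 against FGFR2 and by 1.64, 2.57 and 2.79 against FGFR3. Both receptors thus stood higher against FGFR1, FGFR2, FGFR3, FGFR4 and IGF1R in each of these 3 settings, with overlap for FGFR4 in mRNA-seq. Against ERBB3 both had shifts below 0 in mRNA-seq and above 0 on shDicer and shAgo2 chromatin, and no test compared the kinds of RNA in these ratios.

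Levels between genes were compared as TPM, which divides by transcript length. In wt mRNA-seq MET (6.33 ± 0.289, SD, n = 3), ERBB2 (5.11 ± 1.83) and FGFR1 (4.59 ± 0.20) led, with ERBB2 overlapping both. FGFR2, IGF1R, FGFR3 and FGFR4 followed at 2.96 to 1.57 TPM, then ERBB3 (0.391 ± 0.209) and EGFR (0.371 ± 0.111), which could not be ranked, and ERBB4 at 0.0139. In shDicer mRNA-seq ERBB4 stood at 4.66 ± 1.42 TPM, just behind MET, ERBB2 and FGFR1, and no 2 neighbours in the order were apart from each other beyond their ranges. EGFR, MET, ERBB2, ERBB3, FGFR1 and FGFR4 were apart between wt and shDicer mRNA-seq in CPM but overlapped in TPM. On chromatin the order was different. IGF1R led in wt at 101 ± 1.33 TPM (n = 2), then FGFR1 at 90.4, FGFR2 at 46.9, ERBB2 at 35.0 and FGFR3 at 22.6, and MET (10.1) and EGFR (9.36) overlapped near the end above ERBB3 (7.20) and ERBB4 (0.112). In shDicer chromatin IGF1R (134 TPM) and FGFR1 (65.1 TPM) still led, ERBB4 (30.8), MET (22.5), EGFR (17.6) and ERBB3 (12.2) all stood above FGFR4 (11.1) and FGFR3 (8.86), and in shAgo2 IGF1R reached 150 TPM with ERBB4 (28.7) and MET (27.7) overlapping. MET and EGFR therefore stood below FGFR3 and FGFR4 on wt chromatin and above both in shDicer and shAgo2.

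The transcripts behind these sums differed between the fractions. In mRNA-seq the full-length transcript EGFR-201 took 97.6% ± 0.719 (SD, n = 3) of EGFR counts in wt and 99.3% ± 0.607 in shDicer, and MET-202 took 94.5% and 95.7% of MET counts. On chromatin EGFR-201 took only 43.7% to 52.6% in the 4 groups and the shorter EGFR-206 17.4% to 25.9%, while MET-202 took 54.8% to 65.2%. ERBB4 counts in shDicer mRNA-seq were split between ERBB4-202 (43.2% ± 28.3) and ERBB4-204 (32.7% ± 27.5), with SDs that leave their order open, and the retained-intron transcript ERBB4-208 rose in share from 15.6% there to 34.2% and 35.4% on shDicer and shAgo2 chromatin. IGF1R counts came mostly from 1 retained-intron transcript, IGF1R-208, with 78.5% in wt mRNA-seq and 51.2% on wt chromatin. For FGFR1, retained-intron transcripts took 12% of counts in wt mRNA-seq and 61.4% on wt chromatin. FGFR3 counts in mRNA-seq moved between FGFR3-201, annotated as a target of nonsense-mediated decay, at 73.7% ± 21.7 in wt and 33.5% ± 29.6 in shDicer, and FGFR3-203 at 14% ± 24.2 and 52.6% ± 44. Each share varied widely between libraries, as the SDs show. Shares were not tested, since reads shared by isoforms are divided by estimation.

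Genes whose pattern was most like EGFR or MET were found by Pearson correlation of log2 CPM over the 14 libraries, centred within each assay, among 9229 genes. The libraries share groups and depth, so r is a description. For EGFR they were PTPN14, a protein tyrosine phosphatase (r = 0.987), NEO1, the receptor neogenin (0.986), ADAM23 (0.984), XPC, a DNA damage sensor (0.982), and ASAH1, an acid ceramidase (0.982). PTPN14 differed by 0.64, 0.60 and 0.51 on the log2 scale in mRNA-seq shDicer, chromatin shDicer and chromatin shAgo2, all called, and by -0.01 in DroshaKD. For MET they were ZNF254 (0.994), CDK6, a G1 cell cycle kinase (0.993), TMTC2 (0.987), PTPRK, a receptor phosphatase (0.987), and ZNF140 (0.987). CDK6 differed by 0.71, 1.39 and 1.62 in the same comparisons, all called, and by 0.34 in DroshaKD (adjusted p = 0.0798). Among the 10 receptors themselves MET was most like ERBB4 (r = 0.959), EGFR had r = 0.941 with ERBB4, 0.916 with MET and 0.883 with ERBB2, and FGFR3 ran opposite to EGFR (r = -0.893).

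The other 48 receptor tyrosine kinases moved in both directions. Of 31 tested in mRNA-seq, 11 rose and 2 fell, where 15.6% of all genes were called higher and 14.2% lower (median log2 fold change 0.81, against 0.011 over all genes). Of 47 tested on chromatin, 17 rose and 3 fell in shDicer (median 0.41), where 11.0% and 10.5% of all genes did, and 16 rose and 3 fell in shAgo2 (0.23), where 12.5% and 12.1% did. The counts for the lists that follow stand against these same shares. In DroshaKD, where 1.19% of all genes were called higher and 2.18% lower, 2 rose (median 0.02), STYK1 (0.73, adjusted p = 0.0474) and ROR2 (0.58, adjusted p = 0.0257). FLT3, a receptor of blood progenitors, rose by 3.12 in mRNA-seq and 1.87 on shDicer chromatin. EPHA5, an ephrin receptor of the nervous system, rose by 3.49 on shDicer and 4.72 on shAgo2 chromatin, and the 2 differed from each other (-1.24, adjusted p = 0.000342). EPHA5 measured only 0.707 CPM in wt chromatin, with at most 13 counts. In the other direction, DDR2, a collagen receptor, fell by 4.44 in mRNA-seq and by 2.02 in shAgo2 chromatin, and RET, the receptor of GDNF, fell by 2.25 and 2.99 on shDicer and shAgo2 chromatin.

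Some ligands of the ERBB family were called higher and none lower. Of 5 tested in mRNA-seq 2 rose (1 with DESeq2), and of 8 tested on chromatin 5 rose in shDicer (4 with DESeq2) and 5 in shAgo2 (2 with DESeq2), with none called in DroshaKD (edgeR and DESeq2; 3 had an unadjusted p under 0.05). NRG3, a neuregulin that binds ERBB4, had 0 to 1 counts in wt mRNA libraries and 44 to 69 in shDicer, so it passed the low-count filter there only through shDicer. On chromatin NRG3 had 10 to 12 counts in wt and 1102 to 1233 in shDicer (log2 fold change 6.50, SE 0.159, adjusted p = 3.13e-10). Unlike its receptor, it stayed low in shAgo2, at 8 counts in each library, and the difference between shDicer and shAgo2 was called (7.19, SE 0.166, adjusted p = 5.3e-10). EGF itself rose by 3.19 and 3.56 on shDicer and shAgo2 chromatin, TGFA by 2.11 and 1.68, and NRG2 by 1.27 and 1.11. In wt chromatin EGF measured 0.449 CPM (SD 0.456) with at most 13 counts, and TGFA 0.829 CPM with at most 15 counts. The rises of EGF and TGFA thus start from low counts. HBEGF, a ligand of EGFR and ERBB4, rose by 0.95 in shAgo2.

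Among HGF and the proteins that control its activation, 1 of 3 tested rose in mRNA-seq, 1 of 7 in shDicer chromatin and 3 of 7 in shAgo2 chromatin. SPINT1, which encodes an inhibitor of the proteases that activate HGF and is itself one of the study's chosen targets, had 0 to 2 counts in wt mRNA libraries and 43 to 64 in shDicer, and on chromatin it rose by 3.98 and 3.66. In mRNA-seq SPINT1 passed the low-count filter only through shDicer, and as a chosen target its direction is not independent evidence. SPINT2, a second such inhibitor, rose by 0.75 in shAgo2. Of the FGF ligands, 3 of 6 tested rose in mRNA-seq, and 4 of 14 rose and 1 fell in each of shDicer and shAgo2 chromatin. FGF9 rose by 1.77 in mRNA-seq and by 1.11 and 1.16 on chromatin, FGF5 by 1.57 in mRNA-seq and 0.83 in shAgo2, and FGF12, an intracellular member that does not act on the receptors, by 1.96 and 1.80 on chromatin. FGF17 fell by 1.66 and 2.53. Of the insulin-like ligands and their binding proteins, 2 of 4 rose in mRNA-seq, and 2 of 7 rose and 1 fell in each of the 2 chromatin comparisons. IGFBP5, which binds insulin-like growth factors outside the cell, rose by 2.20 in mRNA-seq and by 3.93 and 2.40 on chromatin, and IGF1 rose by 2.76 and 3.42 on chromatin. IGF1 measured only 0.58 CPM in wt chromatin, with at most 11 counts.

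Inside the cell the calls ran both ways. Of 15 adaptors, 2 rose and 2 fell in mRNA-seq, 2 fell on shDicer chromatin, and 1 rose and 2 fell on shAgo2 chromatin, counts near the shares over all genes in mRNA-seq (15.6% higher and 14.2% lower) and, for the falls, on chromatin (10.5% and 12.1% lower). GAB2, a docking protein, rose by 1.59 in mRNA-seq, and IRS4, an insulin receptor substrate, by 0.70. CRKL, an adaptor of the CRK family, fell by 0.70 in mRNA-seq and by 0.83 and 0.57 on shDicer and shAgo2 chromatin. Of 10 RAS-ERK genes, 1 fell in mRNA-seq (NRAS, -0.68) and 1 rose in shAgo2 chromatin (BRAF, 0.45). Of 10 PI3K-AKT genes, 2 rose in mRNA-seq, 4 rose and 1 fell in shDicer chromatin, and 5 rose and 1 fell in shAgo2 chromatin. AKT2, a survival kinase, rose by 1.28, 0.85 and 0.73, PIK3CA, a catalytic subunit of PI3K, by 0.55 and 0.68 on chromatin, and PDPK1, which activates AKT, fell by 0.98 and 1.19 there.

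Inhibitors of the receptors and the ligases that mark them for degradation numbered 18. Of 16 tested in mRNA-seq, 4 fell and none rose by edgeR or DESeq2, although 1 was higher at an unadjusted p under 0.05. The 4 were PTPN1 (-1.40), a phosphatase that acts on EGFR and the insulin receptor, SPRY2 (-1.18), which restrains RAS-ERK signalling, LRIG2 (-0.68) and CBL (-0.58), a ubiquitin ligase of EGFR and MET. On chromatin 2 rose and 3 fell of 17 in shDicer, and 5 rose and 5 fell in shAgo2. CBL fell there by 0.73 and 0.69 and PTPN1 by 0.57 and 0.83, while SPRED2, another inhibitor of RAS-ERK signalling, rose by 0.72 and 1.53. Of 10 genes known as output of ERK signalling, 8 were tested in mRNA-seq, where 4 rose and 1 fell (SPRY2). On chromatin 4 of 10 rose in shDicer and 7 of 10 in shAgo2, and edgeR, DESeq2 and an unadjusted p under 0.05 all gave 0 falls in both. CCND1, the G1 cyclin D1, rose by 3.49 in mRNA-seq and by 2.28 and 2.23 on chromatin. DUSP4, a phosphatase of ERK, rose by 2.13 in mRNA-seq and 1.29 on shDicer chromatin, and EPHA2, an ephrin receptor, by 1.32, 1.47 and 0.99. DUSP6 (2.42) and ETV5 (1.23) rose in shAgo2 chromatin. In DroshaKD, edgeR called only STYK1 and ROR2 in all 10 lists. DESeq2 also called 1 adaptor lower there, and at an unadjusted p under 0.05 the adaptors alone had 3 higher and 6 lower.

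**Figure D4:**
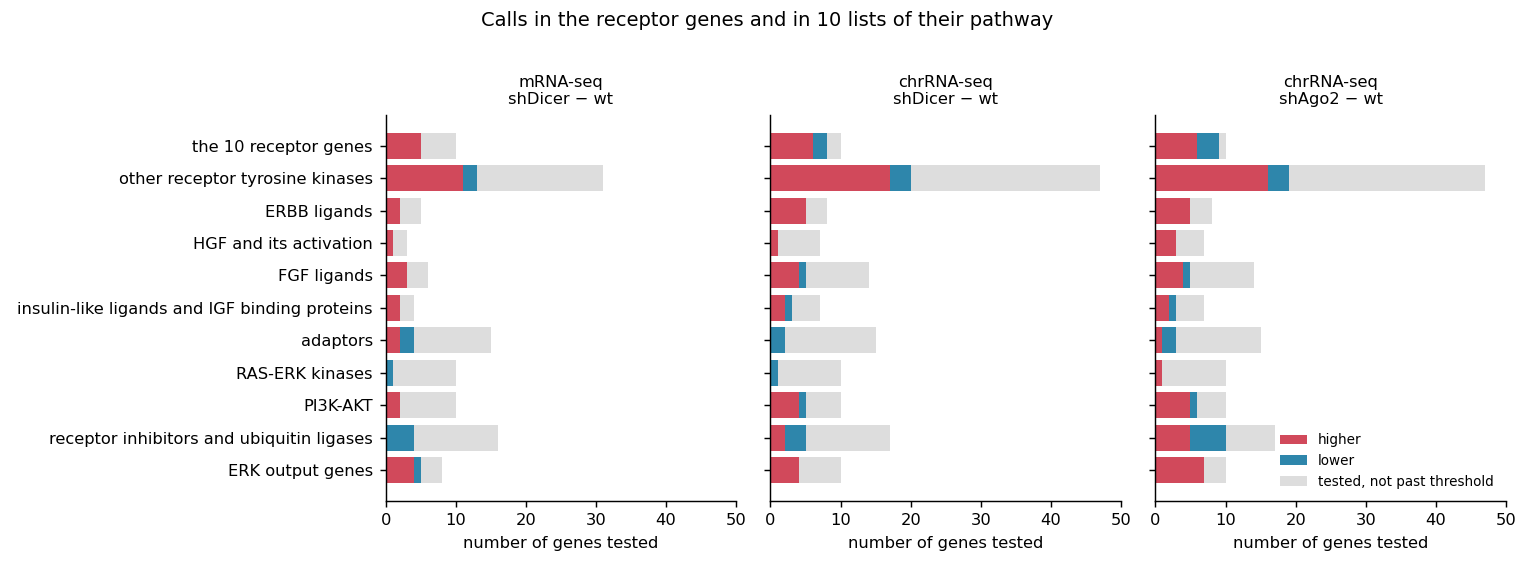
Number of genes tested (bar length) in the 10 receptor genes and each of 10 pathway lists, split into those called higher, called lower and not past the threshold, for the 3 comparisons of shDicer or shAgo2 with wt. Rises outnumber falls in all 3 among other receptor tyrosine kinases (11 and 2 in mRNA-seq), ERBB ligands and ERK output genes. The same holds for HGF and its activation, FGF ligands, insulin-like ligands with IGF binding proteins, and PI3K-AKT genes. It does not hold in all 3 for adaptors, RAS-ERK kinases and receptor inhibitors.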

How the data were processed

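Per the labels and the study's methods, the authors pseudo-aligned the reads with kallisto to Ensembl release 89 transcripts (cDNA and ncRNA, stranded option) and deposited, for each library, an estimated count and a TPM value per transcript, where TPM is normalised for transcript length and library size. The submitters' notes name hg 38. Intronic reads count only where an annotated transcript retains that intron. Here transcripts (217082) were matched without version to GENCODE release 44, which uses hg38. In all, 193697 (89.2%) matched, holding 93.42% to 94.83% of the counts, and estimated counts were summed per gene, rounded and tested with edgeR 4.0.16 in R 4.3.3 (quasi-likelihood test, TMM scaling, filterByExpr, Benjamini-Hochberg adjustment over all genes tested). The 6 mRNA-seq and the 8 chrRNA-seq libraries were fitted separately, and together for the interaction. CPM values use TMM-scaled library sizes. Calls required an adjusted p under 0.001 (mRNA-seq), 0.005 (shDicer, shAgo2, direct comparisons, interaction) or 0.05 (DroshaKD). SE is the log2 fold change divided by the root of F. Alternatives were DESeq2 1.42.0, other scalings and filters, TPM-scaled counts, protein_coding transcripts, replicate block, left-out libraries, and an offset for the 50 nearest genes.

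The 10 receptor genes are always named. From each pathway list up to 4 genes per comparison were eligible to be named, those with the largest change among called genes at a mean log2 CPM of 1 or more, and NRG3 and EPHA5 are also given where not chosen by that rule. For EGFR and MET the 5 most alike genes averaged 3 or more log2 CPM in each assay. The members and lists were chosen with earlier results of these data known. The edgeR procedure was tested on simulated counts in which 200 genes changed between shDicer and wt. At a log2 change of 1 it recovered 141 of them in mRNA-seq and 120 on chromatin, with 0 and 2 false calls. At a log2 change of 2 it recovered 198 and 197, with 0 and 1 false calls. A gene with a log2 change of 1 can therefore go uncalled. Intervals cover counting error only. The 6 small RNA samples were not analysed here. Some listed genes are not reported here by name.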

Additional observations from a re-analysis of the deposited data

Results flagged for a closer look

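The shDicer effect differed between the 2 kinds of RNA, by the interaction test, for ERBB3 and FGFR1. For ERBB3 the chromatin effect minus the mRNA-seq effect was -1.30 on the log2 scale (edgeR adjusted p = 0.00314), with rises of 0.63 on chromatin and 1.85 in mRNA-seq. For FGFR1 it was -0.92 (edgeR adjusted p = 0.000496), with -0.56 on chromatin and 0.29, not called, in mRNA-seq. Wt ERBB3 rested on about 1 CPM in mRNA-seq, and FGFR1 counts on chromatin came largely from retained-intron transcripts (61.4% in wt). Their part in the difference was not tested.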

How the results depend on the processing

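Each of the 10 genes was refitted under the alternatives in every comparison, which gave 1228 values. Of these, 1118 kept their direction and their side of the threshold, 76 lost a call, 5 gained one and 29 changed sign. MET kept its rises on chromatin, and ERBB4 its rises in all 3 comparisons with wt, under every alternative. With counts scaled from TPM the mRNA-seq calls of EGFR, ERBB2, ERBB3 and MET were lost (adjusted p from 0.00145 to 0.0483), as were those of ERBB3 (0.69) and FGFR4 (-0.42) in shAgo2. Besides the changes given with each gene, DESeq2 called the assay difference of MET (0.69) and IGF1R (0.77) but not that of ERBB3 (-1.14, adjusted p = 0.00732), which was also lost with library size only (-1.19) and no filter (-1.31). With protein_coding transcripts only, FGFR4 (-0.63) and IGF1R (0.46) in shAgo2 lost their calls. DESeq2 called 1 ERBB ligand higher in mRNA-seq and 2 in shAgo2 (2 and 5 with edgeR), 4 PI3K-AKT genes higher in mRNA-seq (2) and 3 in shAgo2 (5), 3 inhibitors higher in shAgo2 (5), 2 HGF-related genes higher in shAgo2 (3), and 4 adaptors lower in shDicer chromatin (2). The causes were not tested.

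All 29 sign changes were in values that had not passed the threshold. With protein_coding transcripts only, FGFR3 in mRNA-seq turned to 0.38, FGFR1 in DroshaKD to 0.099, and FGFR3 and IGF1R between shDicer and shAgo2 to 0.086 and 0.30. With library size only, FGFR2 in shDicer chromatin was 0.018, and EGFR and FGFR1 in DroshaKD were 0.0013 and 0.034. With counts scaled from TPM, FGFR2 was 0.056 in shDicer chromatin and 0.016 in shDicer against DroshaKD, and in DroshaKD EGFR was 0.20, FGFR1 0.049 and FGFR3 -0.021. With the neighbours' median as offset, FGFR4 in shDicer chromatin was 0.078, and in DroshaKD FGFR2 was -0.036 and IGF1R -0.0011. When 1 library was left out, FGFR2 in shDicer chromatin ranged from -0.077 to 0.029. In DroshaKD EGFR ranged from -0.18 to 0.080, FGFR1 from -0.094 to 0.051 and FGFR3 from -0.057 to 0.25. Between shDicer and shAgo2 EGFR ranged from -0.20 to 0.23, ERBB4 from -0.016 to 0.083 and FGFR3 from -0.29 to 0.095. The assay difference ranged from -0.52 to 0.012 for EGFR and from -1.41 to 3.39 for ERBB4.

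Counts of called genes were 4492 in mRNA-seq, and on chromatin 7096 in shDicer, 8069 in shAgo2 and 1110 in DroshaKD. With 1 library left out they ranged from 2725 to 4692, from 3843 to 7541, from 4448 to 8627 and from 72 (without wt replicate 1) to 1718. Protein_coding transcripts only gave 3584 in shDicer and 4146 in shAgo2 chromatin, a sum over fewer transcripts, and counts scaled from TPM gave 317 in DroshaKD. With library size only, 768 rose and 527 fell in DroshaKD, against 392 and 718, and the assay difference had 505 higher and 750 lower, against 375 and 1189, or 1107 and 1104 with DESeq2.

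Replicate numbers are shared between groups, but same-numbered samples did not always deviate together (r = 0.117, 0.0607 and 0.234 in mRNA-seq). On chromatin r ranged from -0.429 (shDicer with DroshaKD) to 0.258 (wt with shDicer). Whether a shared number marks a shared preparation was not tested. The replicate block gave 4773 calls in mRNA-seq, 5879 in shDicer, 6869 in shAgo2 and 452 in DroshaKD chromatin, and under it the calls of ERBB2 (0.34, adjusted p = 0.00999) and IGF1R (0.33, adjusted p = 0.00882) in shDicer and ERBB3 (0.52, adjusted p = 0.00542) in shAgo2 were lost. DroshaKD numbers ran against those of wt (r = -0.275), and with them crossed, a pairing added after seeing the data, the block gave 8797, 9847 and 3111 calls on chromatin. ERBB4 in DroshaKD from its 2 groups alone, and IGF1R in mRNA-seq from protein_coding transcripts, gave no value because the gene did not pass the filter on low counts.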
